A study of Mus musculus with 4 samples.

Results

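The genes described are 10 kinases, mediators and the histone target of DNA damage signalling, namely Atm, Atr, Chek1, Chek2, Brca1, Mdc1, Topbp1, Rnf8, Trp53bp1 and H2afx. They were chosen by symbol, and each was found once among the 24388 symbols kept from the deposited table. The samples are poly(A) RNA libraries of C57BL/6 mouse spermatocytes, 2 from an Np95 knockout and 2 from a control. Their age is given as 21 dpc, a label that was not checked. Markers of pachytene cells and spermatids were present in these libraries, as given below. Np95 is another name for Uhrf1, the protein that brings the maintenance methyltransferase to newly copied DNA, and the study asked how this maintenance before meiosis bears on meiotic prophase. The file headers call the knockout Np95cKO, while the sources used here do not name the deleted part, any Cre line or the genotype of the control animals. Cells came from tubules treated with accutase and passed through a mesh, with no sort described, so other testis cells can be present. Whether the 2 libraries of a group stem from different animals is not stated in the labels, so each p-value reflects variation between libraries that could be technical.

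DNA breaks and exposed single strands are read by large kinases. ATM answers breaks, ATR answers coated single strands, and both phosphorylate the histone variant H2AX, which MDC1 then binds. In spermatocytes this signalling follows the programmed breaks of meiosis, and ATR, TOPBP1 and BRCA1 gather on chromosome axes that have no partner. In pachytene these proteins and MDC1 lie on the X and Y chromosomes, whose genes are silenced there. This is background, and the libraries measure transcript levels and not phosphorylation, foci or breaks.

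The knockout libraries differed from the control libraries over much of the transcriptome. Uhrf1 itself, on chromosome 17, had 1.87 and 1.48 RPKM in knockout replicates 1 and 2, against 3.11 and 3.29 RPKM in control replicates 1 and 2, and was called lower (adjusted p = 0.0031 by limma). RPKM is a read level corrected for gene length and library size, and the steps between its low values match the whole gene span with introns better than the transcript length, although 34.6% to 37.8% of them lie off a whole step. Taken by gene span, RPKM compares a gene between libraries but not genes with each other. Of 9099 genes tested, 43.3% were called higher and 30.5% lower in the knockout at an adjusted p under 0.05, and the median log2 fold change was 0.14. The steps between low values correspond to about 11100000 and 4800000 read pairs in knockout replicates 1 and 2, and to about 5810000 and 12800000 in control replicates 1 and 2. Summed levels of cell type markers differed as well. The 14 Sertoli cell markers found summed to 329.9 and 411.1 RPKM in the knockout libraries, against 106.2 and 124.5 RPKM in the control libraries, and each of the 14 was higher in both knockout libraries. The 15 pachytene markers summed to 965.2 and 720.0 RPKM in the knockout, against 2316 and 2267 RPKM in the control. Of these 15, 13 were lower and 1 higher in both knockout libraries. The 15 spermatid markers summed to 113.4 and 71.2 RPKM in the knockout, against 353.9 and 346.5 RPKM in the control. Of these 15, 10 were lower and 0 higher in both knockout libraries. Most of the spermatid sum was Dnajb3, with means of 79.1 RPKM in the knockout and 315.8 RPKM in the control. The 15 dissociation stress genes summed to 89.2 and 131.9 RPKM in the knockout, against 23.8 and 29.3 RPKM in the control. Of 11 markers of meiotic entry to zygotene 10 were higher in both knockout libraries, while their sum, led by Tex101, was 213.1 and 189.9 RPKM in the knockout, against 210.1 and 217.7 RPKM in the control. Of 11 spermatogonial markers 9 were higher in both knockout libraries, with sums of 45.9 and 44.3 RPKM in the knockout, against 47.3 and 51.9 RPKM in the control. Leydig, macrophage, and peritubular and endothelial markers were higher in both knockout libraries for 6 of 7, 8 of 8 and 6 of 7 genes, and erythroid markers for 1 of 5. None of these markers was at 0 in all libraries. In such bulk libraries fewer cells of a type and less RNA per cell cannot be told apart, and the part of these cell type differences in the results below was not tested.

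**Figure D1:**
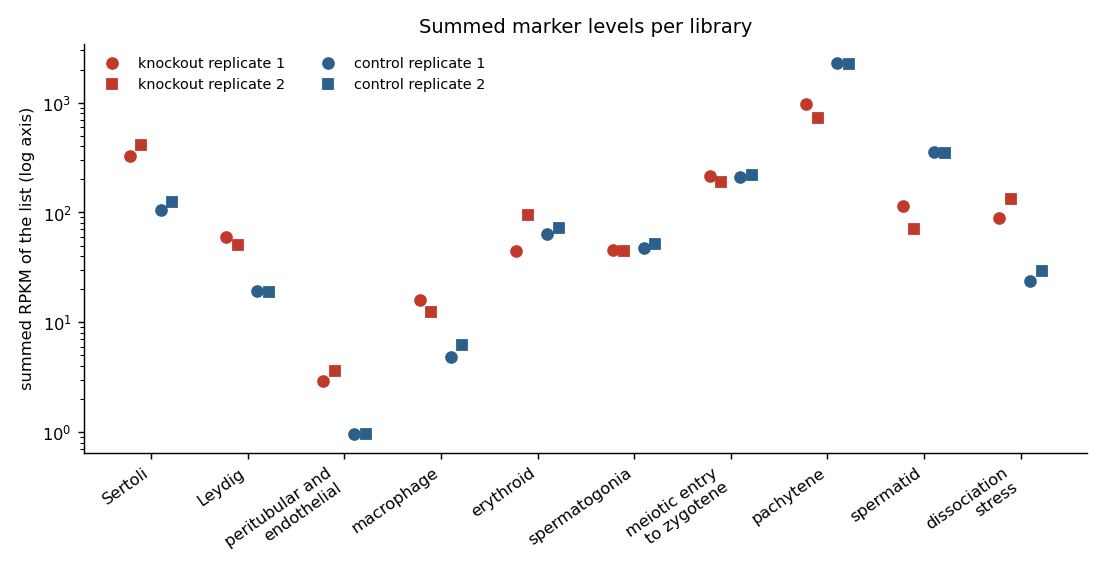
Summed RPKM of each marker list (log axis) in each library, knockout in red and control in blue. Sertoli, Leydig, peritubular, macrophage and stress lists lie higher in both knockout libraries, pachytene and spermatid lists lie lower, and the erythroid list differs most between the knockout replicates.

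Promoters are shown because Np95 acts on methylated CpG sites. RefSeq promoter windows, 250 bases before to 50 after the start, were matched for 9 of the 10 genes (GRCm38.p6). They are printed for Atm, which had the largest fold, for Chek1, which was also more than 2-fold higher, and for Rnf8, whose groups overlapped, 5′ to 3′ on the strand of the gene with CpG sites in capitals.
Atm, chr9:53536622-53536921, minus strand: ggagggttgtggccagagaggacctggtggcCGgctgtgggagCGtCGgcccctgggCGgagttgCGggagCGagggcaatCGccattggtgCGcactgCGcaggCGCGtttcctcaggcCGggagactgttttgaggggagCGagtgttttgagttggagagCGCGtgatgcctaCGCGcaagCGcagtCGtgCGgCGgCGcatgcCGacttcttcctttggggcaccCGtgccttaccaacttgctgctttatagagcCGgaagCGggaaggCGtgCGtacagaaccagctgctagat
Chek1, chr9:36726609-36726908, minus strand: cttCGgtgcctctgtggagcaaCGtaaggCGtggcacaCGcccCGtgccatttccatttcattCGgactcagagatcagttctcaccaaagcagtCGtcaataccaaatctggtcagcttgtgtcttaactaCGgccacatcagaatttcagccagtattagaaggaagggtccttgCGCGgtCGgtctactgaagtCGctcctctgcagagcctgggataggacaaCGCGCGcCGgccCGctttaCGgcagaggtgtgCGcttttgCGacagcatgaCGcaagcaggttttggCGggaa
Rnf8, chr17:29614539-29614838, plus strand: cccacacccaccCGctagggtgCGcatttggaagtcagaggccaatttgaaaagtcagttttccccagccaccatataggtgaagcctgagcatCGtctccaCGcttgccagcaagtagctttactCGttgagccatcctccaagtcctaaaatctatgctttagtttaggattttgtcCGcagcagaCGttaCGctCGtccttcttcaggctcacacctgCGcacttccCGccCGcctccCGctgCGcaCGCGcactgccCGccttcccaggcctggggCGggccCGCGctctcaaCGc

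All 9 windows held more CpG sites than the median window. They held 19 to 38 CpG sites each, where the median over 32851 promoter windows was 7. Of all windows, 95.0% held fewer sites than that of Topbp1 and 85.8% fewer than that of Atm. For each of the rest this share was 71.9% to 76.9%, so such numbers are not rare among promoters. Topbp1 had 38, Atm 28, Atr, Chek1 and Mdc1 22 each, Chek2 and Rnf8 21 each, Trp53bp1 20 and Brca1 19. Methylation of these sites was not measured in these libraries, and no relation between these numbers and the levels was tested. The E2F-type letters TTTCCCGC, searched on both strands, were in the windows of Chek2 and Mdc1 and in 1.07% of all windows. Another E2F-type form, TTTGGCGC, was in none of the 9 windows and in 0.514% of all. Only these exact letters were searched, so other E2F-like forms, also those cut by a window edge, were not counted. The CCAAT box, on both strands, was in 5 of the 9 windows (Atm, Chek2, Brca1, Mdc1 and Rnf8) and in 37.4% of all. The GC box GGGCGG was in 6 of the 9 and in 35.7% of all. The CRE letters TGACGTCA, the ETS letters CCGGAAGT and the NRF1 site were in none of the 9, and in 1.79%, 3.89% and 0.971% of all windows.

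Of the 10 genes, 9 had a higher RPKM in both knockout libraries than in both control libraries, where 51.8% of tested genes did, and Rnf8 was the exception. Tested genes had at least 1 RPKM in at least 2 of the 4 libraries, which 9 of the 10 genes met and Chek2 did not. Of those 9 genes, 6 were called higher, 0 lower and 3 were not called, where 43.3% of tested genes were called higher. Atm, Chek1 and Brca1 were under 1 RPKM in both control libraries and passed through the knockout libraries, so that their difference is partly built into the filter. Of the 1429 tested genes in that position, 96.5% were called higher, and 78.2% were called higher with a mean at least 2-fold above the control. Of all tested genes 24.3% were called higher by at least 2-fold, and of the 9 genes these 3 were. The other 6 genes were at 1 RPKM or more in every library, and 3 of them (Atr, Topbp1 and Trp53bp1) were called higher, where 35.2% of such genes were. Without the filter, 7 of the 10 genes were called higher and 0 lower, where 34.8% of all genes fitted were called higher and 16.2% lower. The median log2 fold change was then 0.32 over the 10 genes and 0.04 over all genes fitted, many of them near 0 RPKM. Among tested genes the median was 0.34 over the 9 genes and 0.14 over all.

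**Figure D2:**
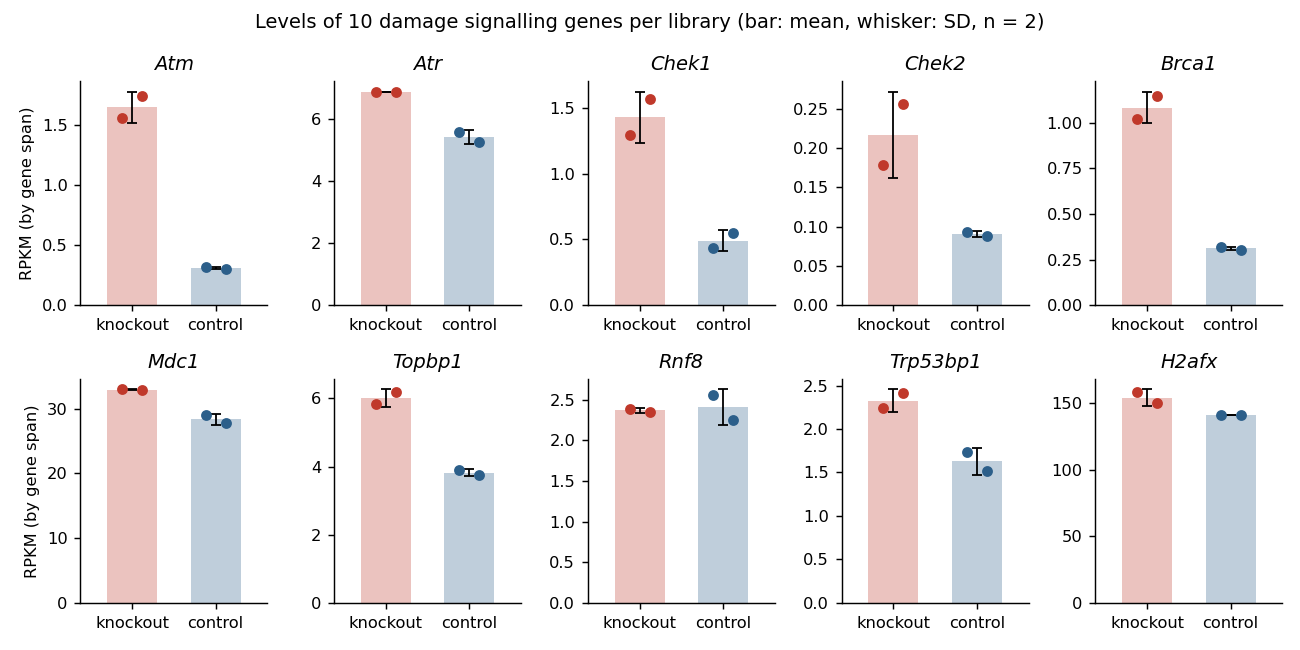
RPKM by gene span of each of the 10 genes, with the knockout (red) left of the control (blue). Points are libraries, bars are means and whiskers are SD (n = 2), and each axis starts at 0. Red points lie above blue points in every panel but that of Rnf8.

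The apical kinase genes Atm and Atr, both on chromosome 9, differed in how much they moved. Atm, the kinase that answers DNA breaks, had 1.56 and 1.74 RPKM in knockout replicates 1 and 2, against 0.315 and 0.305 RPKM in control replicates 1 and 2. Both knockout libraries lay far above both control libraries, and the controls differed from each other by little. Its mean was 5.32-fold higher in the knockout, with a log2 fold change of 1.01 on the log2(RPKM + 1) scale (SE 0.07, adjusted p = 0.0014), which understates the change of low genes. This log2 fold change exceeded that of 89.7% of tested genes. Atr, the kinase that answers single-stranded DNA and that acts on the unpaired sex chromosomes, had 6.87 and 6.86 RPKM in the knockout, against 5.58 and 5.25 RPKM in the control. Its groups did not overlap, but the rise was 1.27-fold (log2 fold change 0.30, SE 0.08, adjusted p = 0.022). The call of Atr ended without control replicate 1 (adjusted p = 0.106), without control replicate 2 (0.185) and with libraries centred on an equal median (0.465).

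The ratio of both kinases within a library does not change when a library is scaled by a constant factor. Atm over Atr was 0.226 and 0.254 in the knockout libraries, against 0.0565 and 0.0581 in the control libraries. The ratio was thus 4.19-fold higher in the knockout, and the groups did not overlap. An exact permutation test of 2 libraries against 2 cannot go below p = 0.333, so it is given as a description.

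The effector kinase genes had a low RPKM by gene span in every library. Chek1, on chromosome 9, codes for the kinase downstream of ATR and had 1.29 and 1.57 RPKM in the knockout, against 0.433 and 0.549 RPKM in the control. Both knockout values were more than 2 times the higher control value. Chek1 rose 2.91-fold (log2 fold change 0.70, SE 0.09, adjusted p = 0.0021), on about 260 and 137 read pairs in the knockout and 46 and 128 in the control. Relative to Atr in the same library, Chek1 stood at 0.188 and 0.229 in the knockout, against 0.0777 and 0.104 in the control.

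Chek2, on chromosome 5, codes for the kinase downstream of ATM and had the lowest RPKM of the 10 genes. Its values were 0.178 and 0.256 RPKM in the knockout, against 0.0930 and 0.0875 RPKM in the control. They rest on about 68 and 42 read pairs in the knockout and 19 and 38 in the control, so that counting error is largest here. Below the filter, its difference of 2.40-fold was tested with all genes left in (log2 fold change 0.16, SE 0.04, adjusted p = 0.036). That call ended with quantile normalization (adjusted p = 0.303), without control replicate 1 (0.167), without control replicate 2 (0.175), without the mean-variance trend (0.0641) and with the replicate number as a block (0.0521). Chek2 over Atm was 0.115 and 0.147 in the knockout, against 0.295 and 0.287 in the control, so within each library Chek2 made up a smaller multiple of Atm in the knockout.

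Topbp1, on chromosome 9, codes for the protein that switches ATR on. It had 5.83 and 6.19 RPKM in the knockout, against 3.90 and 3.74 RPKM in the control, and the groups were well apart. Topbp1 rose 1.57-fold (log2 fold change 0.54, SE 0.08, adjusted p = 0.0029) and stayed called under each alternative run, with adjusted p from 0.00077 to 0.030. Within a library, Topbp1 over Atr was 0.849 and 0.902 in the knockout, against 0.700 and 0.713 in the control.

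Brca1, on chromosome 11, codes for a ubiquitin ligase subunit of repair that also lies on unpaired meiotic axes. It had 1.02 and 1.14 RPKM in the knockout, against 0.318 and 0.304 RPKM in the control. Brca1 rose 3.48-fold (log2 fold change 0.67, SE 0.07, adjusted p = 0.0015), and its knockout libraries lie just above the filter of 1 RPKM. Trp53bp1, on chromosome 2, codes for 53BP1, which opposes BRCA1 in the choice of repair path in somatic cells. It had 2.24 and 2.42 RPKM in the knockout, against 1.74 and 1.52 RPKM in the control. Trp53bp1 rose 1.43-fold (log2 fold change 0.34, SE 0.08, adjusted p = 0.015). Its call ended without control replicate 1 (adjusted p = 0.0509), without control replicate 2 (0.129), with equal medians (0.118) and with quantile normalization (0.278). Brca1 over Trp53bp1 was 0.457 and 0.473 in the knockout, against 0.183 and 0.200 in the control, a 2.43-fold higher ratio.

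H2afx, Mdc1 and Rnf8 were not called as deposited, although the scaling between libraries changed this, as given below. H2afx, on chromosome 9, codes for the histone variant H2AX, and had 158.3 and 149.7 RPKM in the knockout, against 141.1 and 140.9 RPKM in the control. The groups did not overlap, but the difference was about the size of its SE and was not called (1.09-fold, log2 fold change 0.13, SE 0.12, adjusted p = 0.394). Mdc1, on chromosome 17, codes for the reader of phosphorylated H2AX and had 32.9 and 32.9 RPKM in the knockout, against 29.0 and 27.7 RPKM in the control. The groups did not overlap, but Mdc1 was not called (1.16-fold, log2 fold change 0.21, SE 0.10, adjusted p = 0.103). Rnf8, also on chromosome 17, codes for the ubiquitin ligase that MDC1 recruits, and had 2.39 and 2.35 RPKM in the knockout, against 2.56 and 2.25 RPKM in the control. The knockout values lay between the control values, and Rnf8 was not called (log2 fold change -0.01, SE 0.08, adjusted p = 0.879). Mdc1 over H2afx was 0.208 and 0.220 in the knockout, against 0.205 and 0.197 in the control, and Rnf8 over Mdc1 was 0.0725 and 0.0713 in the knockout, against 0.0884 and 0.0812 in the control.

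**Figure D3:**
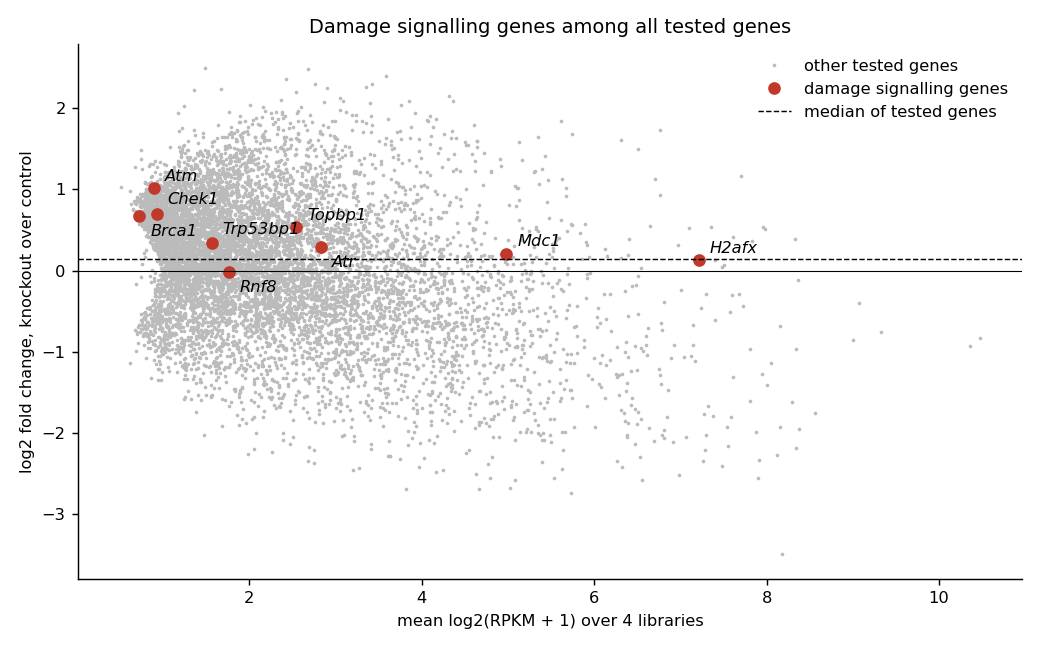
Log2 fold change (knockout over control) of the tested genes against mean log2(RPKM + 1) over the 4 libraries, with the 9 tested damage signalling genes in red and the median of tested genes, 0.14, as a dashed line. Atm, Chek1 and Brca1 lie at the low end of RPKM by gene span, which does not compare genes with each other. They lie above the median line, while H2afx, Mdc1 and Rnf8 lie at or near it.

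Relative to the median of all tested genes, 0.14 on the log2 scale as deposited, Atm lay 0.87 higher, Chek1 0.56, Brca1 0.53, Topbp1 0.40, Trp53bp1 0.20, Atr 0.16 and Mdc1 0.07. H2afx lay at -0.01 and Rnf8 at -0.15. With libraries brought to an equal RPKM sum the median of all genes was 0.44, 9 of the 9 tested genes were called higher, and 58.8% of all tested genes were. With an equal median it was -0.05, and Atm, Chek1, Brca1 and Topbp1 were called higher, where 34.2% of tested genes were. Atm, Chek1 and Brca1 passed the filter through the knockout libraries, where 96.5% of such genes were called higher as deposited. Of the 6 genes at 1 RPKM or more in every library, only Topbp1 was called with an equal median. With quantile normalization the median of all genes was 0.01, and 7 of the 9 tested genes were called higher, where 34.7% of all tested genes were. Atm, Chek1, Brca1 and Topbp1 were called higher under each of these scalings. H2afx and Mdc1 had log2 fold changes of 1.05 (adjusted p = 0.0018) and 0.74 (adjusted p = 0.0039) with quantile normalization, 0.54 (0.0063) and 0.61 (0.0026) with an equal sum, and -0.13 and -0.04, not called, with an equal median. Rnf8 was called higher with an equal sum (0.28, adjusted p = 0.035) and lay at -0.20 and -0.23, not called, with the equal median and with quantile normalization. For H2afx, Mdc1 and Rnf8 the direction therefore follows the scaling.

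**Figure D4:**
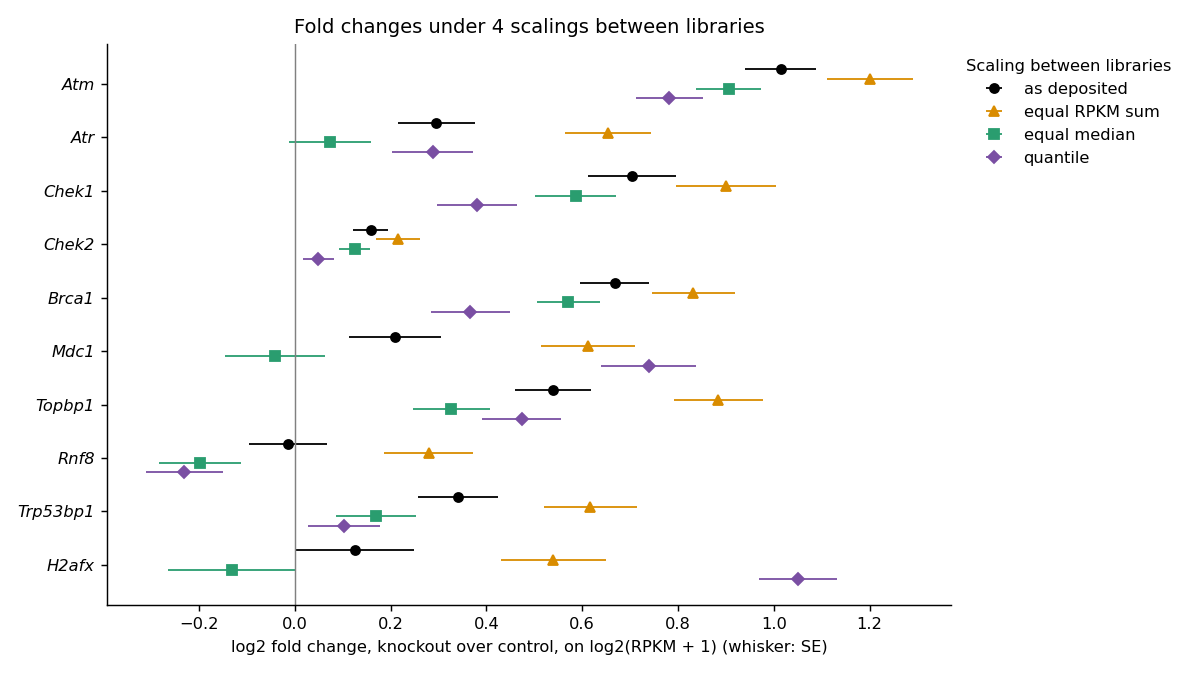
Log2 fold change with its SE (whiskers) of the 10 genes under 4 scalings between libraries, with Chek2 taken from the fit without the filter. Atm, Chek1, Brca1 and Topbp1 stay right of 0 under each scaling, and H2afx spans from -0.13 to 1.05.

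Levels of different genes can be set side by side after rescaling RPKM from gene span to the length of the transcript with the longest coding sequence. This assumes that the authors divided by gene span, and spans and transcripts are those of GRCm38 annotations, so these levels are approximate. It also assumes that the counted reads lie in exons, which was not tested. Counted intron reads would raise the levels of genes with long introns. H2afx, a gene with 1 exon, was highest at 155.9 and 147.4 in the knockout, against 139.0 and 138.8 in the control. Mdc1 (81.7 and 81.6 in the knockout, against 71.8 and 68.7 in the control) and Atr (81.1 and 80.9, against 65.8 and 62.0) came next. Their knockout levels differ by less than this rescaling can tell. Topbp1 followed at 50.6 and 53.6 in the knockout, against 33.8 and 32.4 in the control. Trp53bp1 stood at 23.6 and 25.5 in the knockout, against 18.4 and 16.0 in the control, and at 18.2 and 19.6, against 14.1 and 12.3, by the shorter GENCODE span.

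Below these genes the order differed between the groups. Atm stood at 15.9 and 17.7 in the knockout, against 3.21 and 3.11 in the control, and Rnf8 at 11.9 and 11.7, against 12.7 and 11.2. Atm was thus above Rnf8 in both knockout libraries and well under it in both control libraries. Brca1 stood at 9.82 and 11.0 in the knockout, against 3.06 and 2.92 in the control, Chek1 at 6.18 and 7.50, against 2.07 and 2.63, and Chek2 at 2.69 and 3.86, against 1.40 and 1.32. In the control libraries Atm and Brca1 differ by less than the uncertainty in their lengths.

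Of the 10 genes 5 lie on chromosome 9, namely Atm, Atr, Chek1, Topbp1 and H2afx, where 5.55% of tested genes lie. Of these 5 genes 4 were called higher, where 39.0% of the tested genes of that chromosome were. Several of the genes start back to back with a protein-coding neighbour within 1000 bases on the other strand. Npat, a regulator of histone gene transcription that starts beside Atm, had 3.03 and 3.30 RPKM in the knockout, against 1.18 and 1.21 RPKM in the control, and rose 2.64-fold (adjusted p = 0.0014). Nbr1, an autophagy receptor gene beside Brca1, had 4.52 and 5.03 RPKM in the knockout, against 2.19 and 2.18 RPKM in the control, and rose 2.19-fold (adjusted p = 0.0014). Both neighbours were thus higher together with the gene they start beside. Hscb, an iron-sulfur cluster cochaperone gene beside Chek2, had 1.06 and 0.875 RPKM in the knockout, against 1.30 and 1.29 RPKM in the control, and was not called (log2 fold change -0.22, adjusted p = 0.051). 1300017J02Rik, beside Topbp1, had 0.300 and 0.196 RPKM in the knockout, against 0.587 and 0.541 RPKM in the control, and was called lower with all genes left in (adjusted p = 0.020). For Hscb the log2 fold change stayed negative in each alternative run, but its size and call followed the scaling. It was -0.0053 with an equal RPKM sum (adjusted p = 0.959), -0.36 with equal medians (0.011) and -0.52 with quantile normalization (0.0031).

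Reads of overlapping genes cannot be told apart, since the library kit does not mark strand. Trp53bp1 overlaps Tubgcp4, of the microtubule nucleation complex, which had 2.91 and 2.60 RPKM in the knockout, against 3.20 and 2.85 RPKM in the control. Atr overlaps 1700065D16Rik and Gm16794 on the other strand, and Rnf8 overlaps Gm28043 and Gm28052 on its own. The tested genes closest to Atm over the 4 libraries, by Euclidean distance of log2(RPKM + 1), were Zfx (distance 0.06), Ankrd50 (0.10) and Taf1 (0.11). Zfx and Taf1 lie on the X chromosome and Ankrd50 on chromosome 3. With 4 libraries in 2 groups, this likeness mostly reflects the level and the difference between the groups.

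The partners of the 10 genes were taken as 8 lists by role, with 56 symbols, of which 54 were found and 43 passed the filter. Rad9 and Tirr were not found under these symbols. Other symbols were not looked up in their place, so their genes need not be absent. Of the 43 genes that passed, 22 were called higher, 4 lower and 17 were not called, where 43.3% of tested genes were called higher and 30.5% lower. The median over the 43 genes was 0.28 on the log2 scale, where that of all tested genes was 0.14, and 10 of the 43 passed through the knockout libraries alone, of which 8 were called higher (Rad50, Rbbp8, Clspn, Telo2, Herc2, Paxip1, Trip13 and Scml2), where 96.5% of such genes were. Of the 32 partner genes at 1 RPKM or more in every library, 13 were called higher, 4 lower and 15 were not called, where 35.2% of such genes were called higher and 33.4% lower. The balance depended on the scaling, with 32 higher and 3 lower at an equal RPKM sum, 18 and 10 at an equal median, and 15 and 10 with quantile normalization. With a filter at 5 RPKM, 2 of the 10 genes left were higher and 5 lower. The counts by role below are to be read against these shares.

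Among proteins that sense breaks, 2 of the 4 tested genes rose, 1 fell and 1 was not called, where 43.3% of tested genes were called higher and 30.5% lower. Both genes that rose, Rad50 and Rbbp8, passed the filter through the knockout libraries, where 96.5% of such genes were called higher. Rad50, of the complex that holds broken ends, had 1.10 ± 0.06 RPKM in the knockout and 0.44 ± 0.04 RPKM in the control (SD, n = 2 each), a 2.50-fold rise (adjusted p = 0.0022) that lost its call with quantile normalization (0.0712). Rbbp8, which starts the trimming of ends, rose 1.60-fold, and its call ended when either control replicate was left out (0.0731 and 0.0953) and with quantile normalization (0.694). Kat5, the acetyltransferase that helps to activate ATM, fell to 9.96 ± 1.06 RPKM in the knockout, against 19.2 ± 0.80 RPKM in the control (SD, n = 2 each, adjusted p = 0.0019). Atm and the gene for this activator thus lay in opposite directions.

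Of the 10 genes that help to activate ATR or to relay its signal, 6 rose and 4 were not called. Clspn codes for claspin, which presents CHK1 to ATR, and rose 3.80-fold, to 1.95 ± 0.29 RPKM in the knockout, against 0.51 ± 0.04 RPKM in the control (SD, n = 2 each, adjusted p = 0.0014). Tipin and Timeless, which bind each other at replication forks, rose 2.61-fold and 2.25-fold (adjusted p = 0.0014 and 0.0018). Of the kinase relatives and their chaperones, 3 of 4 rose. Telo2 and Tti1, which help to fold ATM and ATR, rose 2.99-fold and 1.56-fold, and Smg1, a related kinase of RNA surveillance, rose 1.68-fold (adjusted p from 0.0014 to 0.0046).

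Of the 6 tested ubiquitin and BRCA1 partners, 2 rose, 1 fell and 3 were not called. Herc2, a ubiquitin ligase that works with RNF8, rose 2.58-fold (adjusted p = 0.0019). Uimc1, which brings BRCA1 to ubiquitin chains, rose 1.52-fold (adjusted p = 0.0070), and Babam1, of the same complex, was 1.39-fold lower (adjusted p = 0.0097). The call of Uimc1 ended with quantile normalization and that of Babam1 with an equal sum (adjusted p = 0.231 and 0.603), and each ended when either control replicate was left out (0.0620 to 0.0785). Bard1, the partner of BRCA1, did not reach the filter, at 0.653 and 0.745 RPKM in the knockout, against 0.460 and 0.481 RPKM in the control. Of 4 partners of 53BP1, 2 fell, 1 rose and 1 was not called. Mad2l2, a subunit of shieldin, fell to 5.89 ± 1.12 RPKM in the knockout, against 17.6 ± 0.58 RPKM in the control (SD, n = 2 each, adjusted p = 0.0014). Nudt16l1, which holds 53BP1 off chromatin, was 1.94-fold lower (adjusted p = 0.0022). Paxip1 rose 1.60-fold (adjusted p = 0.014), a call that ended with equal medians (0.0569), with quantile normalization (0.744) and when either control replicate was left out (0.0627 and 0.131).

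Of the 5 tested checkpoint effectors, 3 rose and 2 were not called. Wee1, the kinase that holds back cell cycle kinases, rose 2.62-fold, Cdc25a, the phosphatase that undoes this, 2.27-fold, and Trp53, which codes for p53, 2.03-fold (adjusted p from 0.0014 to 0.0030). Genes that act against each other at this step thus rose together. The 3 tested Fanconi genes, Fancd2, Fanci and Fanca, were not called, with log2 fold changes from -0.10 to 0.21. In the meiotic silencing list 5 of 7 rose and 2 were not called, where 43.3% of tested genes were called higher. Of these 5, Scml2 and Trip13 passed the filter through the knockout libraries. Scml2, an X-linked Polycomb protein gene of the germ line, rose 4.17-fold, Cbx3, of the heterochromatin proteins, 1.85-fold, and Setdb1, a histone methyltransferase of silenced chromatin, 1.74-fold (adjusted p from 0.0014 to 0.0019). Hormad1, of unsynapsed axes, had 4.28 and 3.74 RPKM in the knockout, against 3.39 and 3.48 RPKM in the control, and was not called (adjusted p = 0.130).

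**Figure D5:**
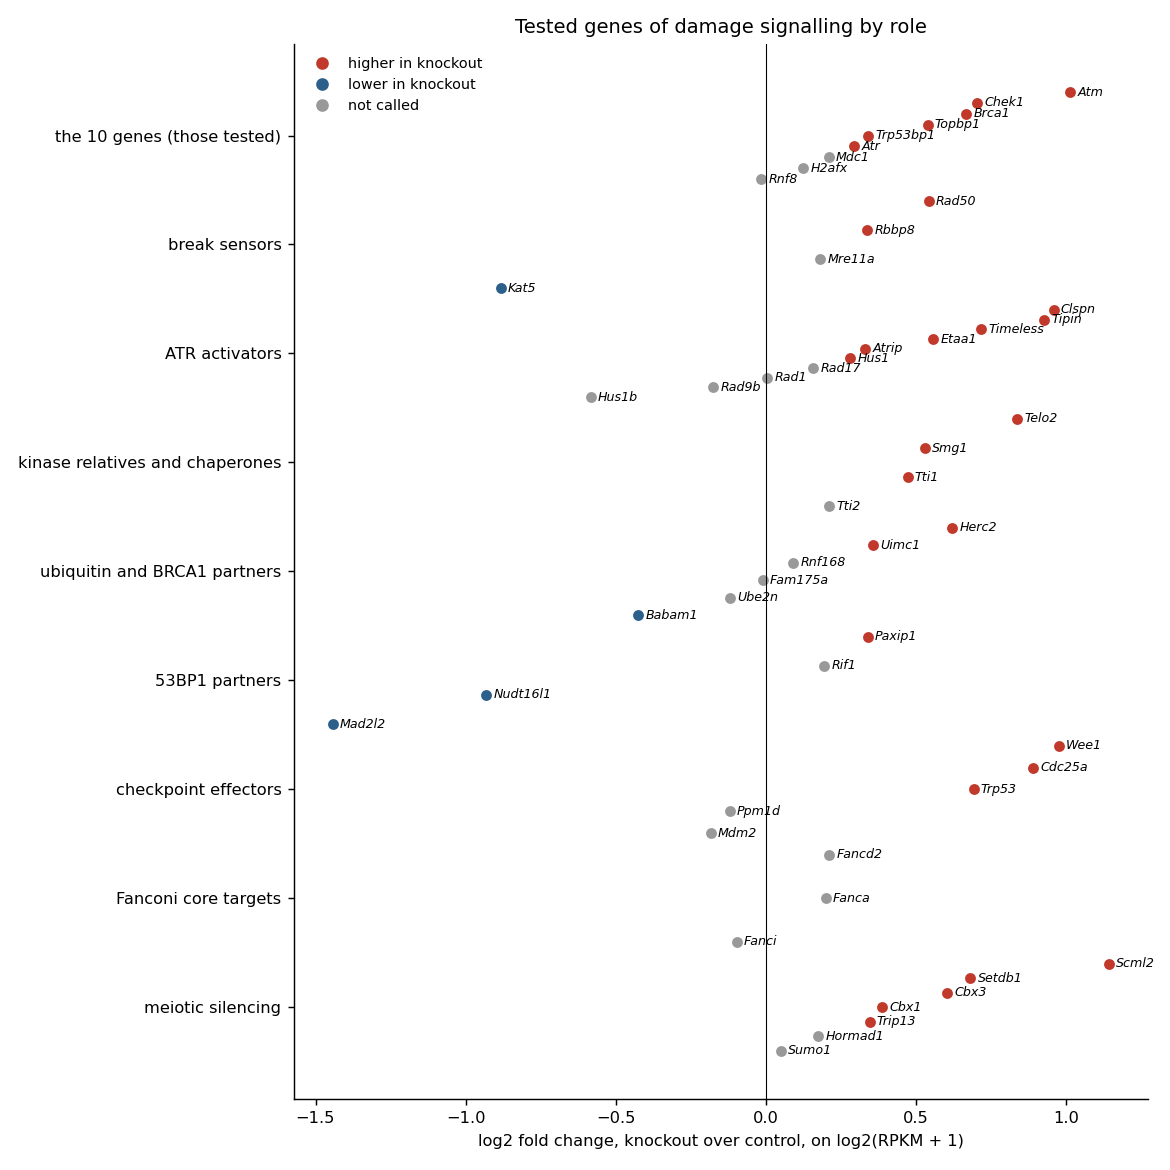
Log2 fold change (knockout over control) of each tested gene, in rows by role, coloured red where called higher in the knockout, blue where called lower and grey where not called. The 4 genes called lower are Mad2l2, Nudt16l1, Kat5 and Babam1, and Scml2 has the highest value shown.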

How the data were processed

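The authors deposited 1 table of RPKM values with 24444 gene rows and a column per library, per the file headers. Bowtie2 and mm9 are named in the submitters' processing notes. The sources used here do not give the counting program or the annotation. Low RPKM values multiplied by RefSeq gene span (GRCm38.p6) fell within 0.05 of a whole step for 62.2% to 65.4% of values per library. By transcript length the best share was 11.2% to 11.7%, and 10% falls there by chance. The divisor is therefore taken to be gene span, which no source states. Read pairs are estimated from that step, taken as 1 mate, and counting error is the part of the error they describe. Whole reads were not recovered, so no count test was run.

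Groups came from sample titles. Rows whose symbol had become a date (27) were dropped, and of repeated symbols the row with the highest mean was kept (29 rows left out). Genes that reached 1 RPKM in 2 or more libraries were compared on log2(RPKM + 1) by limma 3.58.1 with a trend in R 4.3.3. Tests were two-sided, with Benjamini-Hochberg adjustment over all tested genes and a threshold of 0.05. Folds are ratios of mean RPKM. On simulated data with the spread of the 9099 genes, this fit called 71 of 100 genes changed by 1 on the log2 scale. It called 8 of 100 changed by 0.5 and 3 of 8899 left unchanged. In the deposited data 73.8% of tested genes were called, so the adjustment was less strict there than in that run. Recovery with so large a share of genes changed was not tested.

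The 10 genes and all lists were chosen with earlier results of these data known. The naming rule takes all 10 genes, Uhrf1, up to 3 called genes per partner list with the smallest p, and the 3 genes closest to Atm. Head-to-head neighbours, overlapping genes, Bard1, Hormad1, Trip13 and the Fanconi genes were named after their values were seen. Neighbours and transcript lengths are from GENCODE M21 (GRCm38), and promoter sequences from RefSeq. Alternatives were pseudocounts of 0.1 and 0.5, other filters, 3 scalings, a fit with no trend, the replicate number as a block, leaving out each library, and summing repeated symbols.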

Additional observations from a re-analysis of the deposited data

How the results depend on the processing

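Atm, Chek1, Brca1 and Topbp1 kept their direction and their call under each alternative in which they were tested, with adjusted p up to 0.010, 0.018, 0.015 and 0.030. Most of these alternatives keep the filter of 1 RPKM, which Atm, Chek1 and Brca1 passed through the knockout libraries. Of tested genes in that position 96.5% were called higher as deposited, so that a kept call says less for these genes. With a pseudocount of 0.1 the log2 fold changes of Atm, Brca1 and Chek1 were 2.09, 1.52 and 1.37. With a filter at 5 RPKM, 2 of the 4 remaining damage signalling genes and 2 of the 10 remaining partner genes were higher, 5 of the 10 partner genes were lower, and 1080 genes in all were higher and 1629 lower of 3468. Without a filter 7370 genes were higher. With an equal RPKM sum 1698 genes were lower. Partner genes called lower numbered 10 with equal medians and 10 with quantile normalization, against 4 as deposited. Directions turned for Mdc1 (-0.041) and H2afx (-0.13) with equal medians, and for Rnf8 with an equal sum (0.28) and without control replicate 1 (0.051, with a range of -0.081 to 0.051 over libraries left out). The cause was not tested. Leaving out 1 library gave 4 to 6 of the damage signalling genes higher and 0 lower, 16 to 24 partner genes higher and 3 to 4 lower, and 3034 to 3949 genes higher and 2085 to 2902 lower. The replicate numbers are not said to pair libraries. With 2 numbers the deviations from the group means correlate equally for both (r = 0.11). With a replicate block 6 damage signalling genes were higher, the block ended the call of Chek2 (adjusted p = 0.052), and 3868 genes in all were higher and 2721 lower. Among the 10 genes, the values of Chek2 and Chek1 rest on the fewest estimated read pairs.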
